A study of Mus musculus with 8 samples.

Results

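The 7 genes described here act in the handling of dietary vitamin A and carotenoids: Scarb1, Rbp2, Lrat, Dgat1, Rdh7, Aldh1a1 and Isx. They were taken by symbol from a table of 24013 gene symbols, in which all 7 were present, and all 7 were among the 11190 genes that passed the filter on low values. RNA was sequenced from sorted intestinal epithelial cells of mice of a mixed C57/BL6 and 129 background, aged 8 to 14 weeks. All mice carried Lyz1CreER and R26R-tdT and had received a single dose of 10 mg tamoxifen, which switches on tdTomato in cells that express the Paneth cell gene Lyz1 and leaves it on in their descendants. The tdTomato-positive CD24+ gate, which holds Paneth cells, was sampled without irradiation (2 libraries) and 5 days after irradiation (3 libraries). The tdTomato-positive CD24- gate, labelled as derivatives of Paneth cells, was sampled 5 days after irradiation (3 libraries). The labels give neither the stretch of intestine nor whether a library is 1 mouse or a pool, and a CD24- group without irradiation was not analysed here.

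Vitamin A reaches the gut as retinyl esters and as carotenoids such as beta-carotene. Absorptive enterocytes, the main nutrient-absorbing cells of the villus, take these up, bind retinol inside the cell, esterify it again and pack it into fat particles. A smaller part is oxidised through retinaldehyde to retinoic acid, which acts on nuclear receptors. One of its known targets in the gut is Isx, a homeobox repressor that lowers carotenoid uptake and cleavage.

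All 7 genes were higher in the derivative gate than in either CD24+ group. Against the irradiated Paneth gate the difference was 2.48-fold (Lrat) to 25.1-fold (Rbp2) on the log2(FPKM + 1) scale used for testing. As ratios of mean FPKM, without the added 1, it was 3.40-fold (Scarb1) to 26.0-fold (Rbp2), with Lrat at 3.82-fold. FPKM counts fragments per length of transcript, relative to all mapped fragments of the library. For each of the 7 the lowest CD24- library lay above the highest library of both CD24+ groups, which was also so for 58.3% of all tested genes (48.6% passed as higher than in the irradiated Paneth gate). Between irradiated and non-irradiated CD24+ cells none of the 7 passed the test, and neither did any other tested gene. The libraries of these groups overlapped for each of the 7, and the share over all genes was not computed. Because these are bulk samples, more cells of a type and more RNA per cell cannot be told apart in any of these values.

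The gates carried the markers of their labels, with exceptions. Lyz1 stood at 19016 to 48892 FPKM in the 5 CD24+ libraries and at 384 to 2576 in the CD24- libraries. Cd24a stood at 621 to 750 FPKM in the CD24+ and 37.4 to 117 in the CD24- libraries. Paneth cell products took 72.5% to 82.2% of the FPKM sum in CD24+ and 8.36% to 16.4% in CD24- libraries. Non-irradiated replicate 1 was unlike the other libraries, with 9362 genes at 1 FPKM or more against 10293 to 10697 in the others. The sources used here give no read numbers. The most common ratio of values under 0.1 FPKM between libraries put the relative sequencing depth within a factor of 1.28. This is a rough estimate, which rests on 47 to 79 genes per library and takes such values as single reads. Whether depth plays a part in the low gene number of replicate 1 was not tested.

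**Figure D1:**
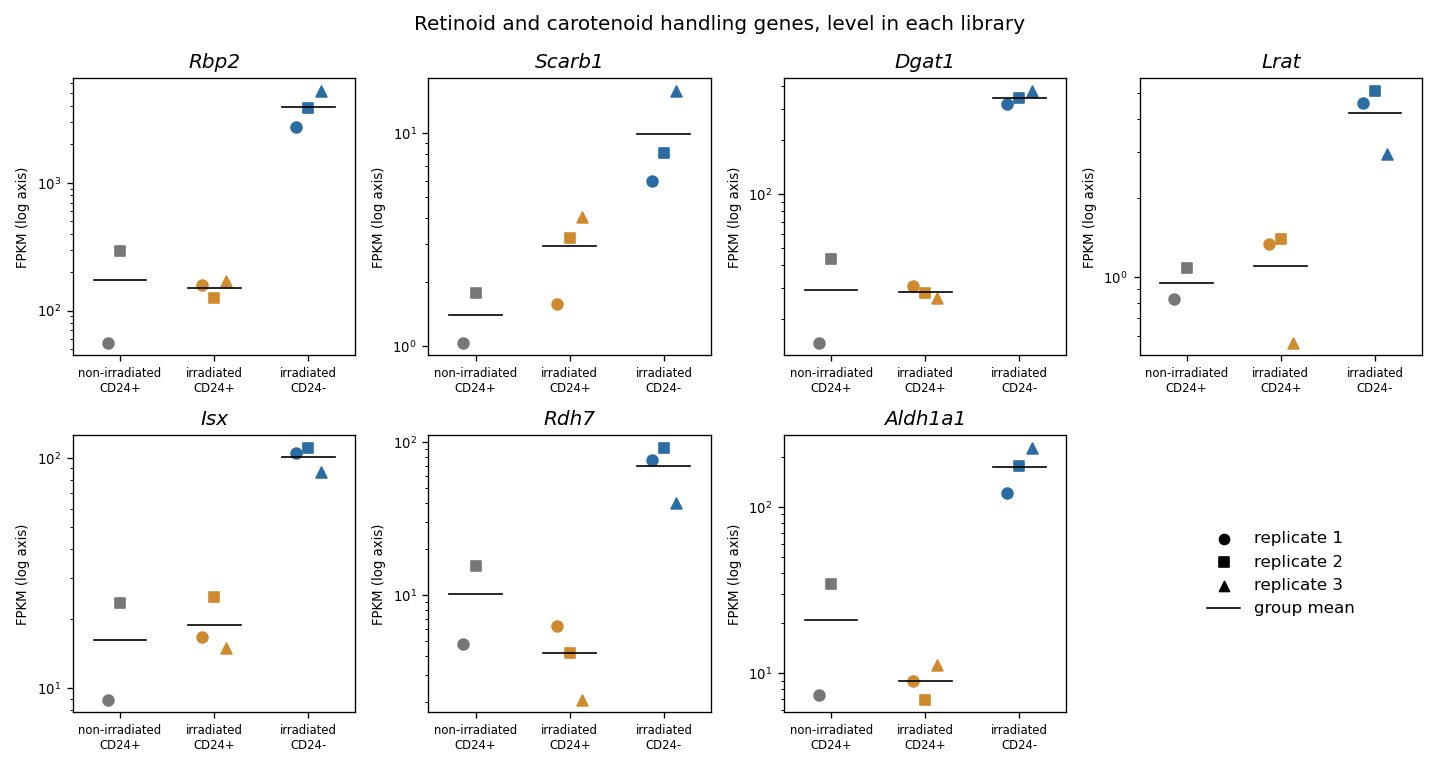
FPKM of each gene in each library on a log axis, by group, with the replicate number as the symbol and the group mean as a line. All 3 irradiated CD24- libraries lie above all 5 CD24+ libraries in every panel.

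The RefSeq windows of these genes are shown because the genes were higher together in the derivative gate. RefSeq (GRCm38.p6, a later build than the mm9 of the deposited values) gave windows of 300 bases, 250 before a transcription start and 50 from it, for 5 of the 7 genes, namely Rbp2, Isx, Lrat, Rdh7 and Aldh1a1. Rdh7 and Aldh1a1 have 2 listed starts each, which makes 7 windows. They were searched on both strands for 8 motifs. Of the forms bound by nuclear receptors the search used the half-site AGGTCA and CAAAGGTCA, a longer form for HNF4 and PPAR that contains it. It also used a further HNF4 form, CAAAGTCCA, and the retinoic acid response element of DR5 type. In the latter the half-site is repeated after a spacer. The other motifs were GTTAAT for the factor HNF1, CNATAAA for the homeobox factor CDX, AGATAA for the GATA factors, and TATAAA for the TATA box. The windows with a match are given 5′ to 3′, with every match in capitals. They are the Rbp2 window at chr9:98490287-98490586 on the plus strand, the first Rdh7 window at chr10:127889198-127889497 on the minus strand and the second Aldh1a1 window at chr19:20601718-20602017 on the plus strand.
Rbp2: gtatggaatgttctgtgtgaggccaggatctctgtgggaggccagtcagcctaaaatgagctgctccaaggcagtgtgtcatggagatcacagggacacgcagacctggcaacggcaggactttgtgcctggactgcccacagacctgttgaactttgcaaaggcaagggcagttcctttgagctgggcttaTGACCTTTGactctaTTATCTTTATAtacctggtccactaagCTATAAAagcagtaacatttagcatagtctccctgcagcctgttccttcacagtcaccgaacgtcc
Rdh7: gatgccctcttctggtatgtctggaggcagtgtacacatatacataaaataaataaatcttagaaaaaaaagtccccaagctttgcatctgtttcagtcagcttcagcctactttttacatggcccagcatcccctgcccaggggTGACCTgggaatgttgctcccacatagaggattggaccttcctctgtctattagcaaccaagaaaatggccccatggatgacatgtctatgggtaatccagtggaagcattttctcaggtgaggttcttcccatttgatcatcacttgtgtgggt
Aldh1a1: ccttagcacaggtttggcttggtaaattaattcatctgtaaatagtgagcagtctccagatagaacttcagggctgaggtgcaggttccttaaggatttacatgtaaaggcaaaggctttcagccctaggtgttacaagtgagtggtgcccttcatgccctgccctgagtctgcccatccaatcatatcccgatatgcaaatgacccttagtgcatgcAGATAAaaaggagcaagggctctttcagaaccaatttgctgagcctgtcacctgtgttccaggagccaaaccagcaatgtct

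The Rbp2 window held the most matches. CAAAGGTCA was read on the minus strand at bases 193 to 201 of the window, just upstream of a GATA match at bases 208 to 213 and of TATAAA at bases 213 to 218 (minus strand) and 236 to 241 (plus strand). The CDX match at bases 235 to 241 overlaps the latter. CAAAGGTCA is present in 0.478% of all 32851 windows of this length, the half-site AGGTCA in 16.3%, the GATA letters in 11.2%, the CDX letters in 10.9% and TATAAA in 13.6%. The Rdh7 window held the half-site at bases 146 to 151, and the Aldh1a1 window the GATA letters at bases 219 to 224. No match to these letters was found in the windows of Isx and Lrat or in the other windows of Rdh7 and Aldh1a1. CAAAGTCCA (0.475% of all windows), GTTAAT (7.10%) and the direct repeat (0.00913%) matched in none of the 7.

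Scarb1 encodes the scavenger receptor SR-B1, which takes up carotenoids, cholesterol and other lipids at the brush border. It stood at 1.03 and 1.77 FPKM in non-irradiated CD24+ replicates 1 and 2, at 1.57, 3.22 and 4.03 in irradiated CD24+ replicates 1 to 3, and at 6.002, 8.13 and 15.8 in the CD24- replicates 1 to 3. The derivative libraries were the highest, and replicate 3 of them was 2.64 times replicate 1. In the derivatives Scarb1 was higher than in the irradiated Paneth gate by 1.43 ± 0.33 (SE, n = 3 against 3) on the log2 scale, with adjusted p = 0.00353. That was 0.92 above the median of all genes, which was itself 0.51. Rescaling every library to the same total (TPM) gave a Scarb1 difference of 2.49, with a median of all genes of 1.58.

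Rbp2 encodes cellular retinol-binding protein 2, the abundant enterocyte protein that carries retinol and retinaldehyde inside the cell. Its levels were 55.9 and 291 FPKM in non-irradiated CD24+ replicates 1 and 2, and 157, 124 and 171 in the irradiated CD24+ replicates. In the derivative replicates 1 to 3 it reached 2732, 3811 and 5218 FPKM. It was the most abundant of the 7 in every group, and in the derivatives only 9 of the 11190 tested genes had a higher mean. The difference to the irradiated Paneth gate was 4.65 ± 0.52 (SE, log2; adjusted p = 3.40e-05), and 8 tested genes had a larger one. The irradiated CD24+ libraries lay between the 2 non-irradiated ones, which differed 5.21-fold from each other.

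Lrat and Dgat1 encode enzymes that esterify retinol: lecithin retinol acyltransferase, the main one, and diacylglycerol acyltransferase 1, which makes triglycerides and can also esterify retinol. Lrat was the least abundant of the 7 in every group. It stood at 0.824 and 1.08 FPKM without irradiation, at 1.34, 1.40 and 0.563 in irradiated CD24+ cells, and at 4.59, 5.11 and 2.94 in derivative replicates 1 to 3. The lowest derivative library, replicate 3, was still above every CD24+ library. The difference between the irradiated gates was 1.31 ± 0.22 (SE, log2; adjusted p = 0.000492), or 0.80 above the median of all genes. Rescaling to TPM moved the difference to 2.21, with a median of all genes of 1.58.

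Dgat1 stood at 14.7 and 43.6 FPKM in non-irradiated and at 30.7, 28.2 and 26.3 in irradiated CD24+ replicates. The derivatives had 318, 343 and 377 FPKM, the narrowest relative spread of the 7 in that gate (346 ± 29.4, SD, n = 3). The difference between the irradiated gates was 3.56 ± 0.33 (SE, log2; adjusted p = 1.19e-05). Dgat1 was thus the second most abundant of these genes in the derivatives, while Lrat, the other esterifying enzyme, had a mean of 4.21 ± 1.13 FPKM (SD, n = 3).

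Rdh7 and Aldh1a1 act in the oxidation of retinol. Rdh7 encodes a microsomal retinol dehydrogenase, which makes retinaldehyde, and Aldh1a1 a retinaldehyde dehydrogenase, which makes retinoic acid. Rdh7 stood at 4.81 and 15.6 FPKM without irradiation, at 6.33, 4.20 and 2.07 in irradiated CD24+ replicates 1 to 3 and at 77.3, 92.0 and 40.3 in derivative replicates 1 to 3. The difference between the irradiated gates was 3.77 ± 0.44 (SE, log2; adjusted p = 4.27e-05). Replicate 3 was the lowest Rdh7 library in both irradiated gates. In GENCODE transcripts 2.46% of the 50-base stretches of Rdh7 also occur in Rdh9 and 9.82% in Rdh1, so part of its reads can be shared with these relatives. Rdh1 and Rdh19 stayed under 1 FPKM in every library, and the level of Rdh16f1 is not reported here.

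Aldh1a1 stood at 7.43 and 34.5 FPKM without irradiation, at 8.92, 6.92 and 11.2 in irradiated CD24+ cells and at 120.4, 177 and 226 in derivative replicates 1 to 3. The difference between the irradiated gates was 4.11 ± 0.44 (SE, log2; adjusted p = 2.74e-05), and 65 tested genes had a larger one. Its near relative Aldh1a7, whose transcript is 89.1% identical over the aligned bases and shares 6.54% of its 50-base stretches, stood at 17.6, 28.6 and 27.2 FPKM in the derivatives. Aldh1a7 was higher there by a log2 difference of 3.17 ± 0.37 (SE; adjusted p = 4.75e-05). The other retinaldehyde dehydrogenases, Aldh1a2 and Aldh1a3, were under 1 FPKM in all libraries, so Aldh1a1 was the most abundant measured gene of this step.

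Isx encodes the intestine-specific homeobox protein, which represses Scarb1 and the gene of the carotene-cleaving enzyme Bco1. It stood at 8.89 and 23.4 FPKM without irradiation, at 16.7, 24.9 and 14.99 in irradiated CD24+ cells and at 104.8, 110.3 and 86.9 in derivative replicates 1 to 3. The 3 derivative libraries were close together, and all were above the highest CD24+ library. The difference between the irradiated gates was 2.38 ± 0.32 (SE, log2; adjusted p = 0.000113).

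The comparison of the irradiated gates asks what differs between tdTomato-positive cells outside the Paneth gate and those in it. All 7 of 7 genes passed as higher, where 48.6% of all 11190 tested genes were called higher, 7.27% lower and 55.9% in either direction. Their median difference was 3.56 on the log2 scale against 0.51 for all genes. All 3 derivative libraries lay above all 3 irradiated CD24+ libraries for each of the 7 and for 59.1% of all tested genes. Scaling by medians of ratios changed the split of calls over all genes from 5439 higher and 813 lower to 3589 higher and 2799 lower, and the 7 genes passed as higher under it too. The smallest difference of the 7 under that scaling was that of Lrat.

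**Figure D2:**
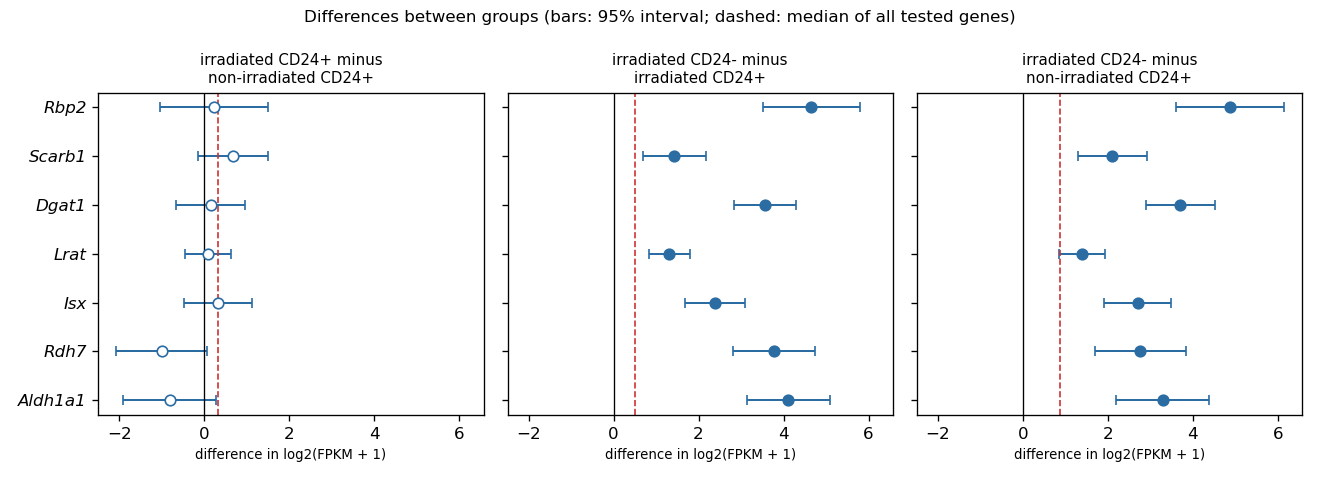
Difference in log2(FPKM + 1) between groups for each gene, with 95% intervals from limma; filled points passed at an adjusted p under 0.05 and the dashed line is the median of all tested genes. All 7 genes are to the right of that line in both comparisons with CD24- cells, and no point is filled in the comparison of CD24+ cells.

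Irradiated CD24- and non-irradiated CD24+ cells differ in gate and irradiation together, and this comparison shares its derivative libraries with the previous one. All 7 genes passed as higher, where 65.7% of all tested genes were called higher, 4.99% lower and 70.7% in either direction, and the median of all genes was 0.88. With median-of-ratios scaling the split over all genes went from 7349 higher and 558 lower to 3280 and 2547. Rbp2 was higher by 4.88 ± 0.58 (SE) on the log2 scale, Dgat1 by 3.71 ± 0.37, Aldh1a1 by 3.30 ± 0.50 and Rdh7 by 2.77 ± 0.49. Isx was higher by 2.70 ± 0.36, Scarb1 by 2.11 ± 0.37 and Lrat by 1.39 ± 0.25. The limma adjusted p ranged from 1.86e-05 for Dgat1 to 0.000524 for Lrat. The differences depended on which non-irradiated library was used: without replicate 1 they were 3.70 for Rbp2, 2.26 for Aldh1a1 and 2.01 for Rdh7, and without replicate 2 they were 6.06, 4.33 and 3.53. In these fits the spread comes from the other groups alone.

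The comparison of CD24+ cells asks what differed within the Paneth gate 5 days after irradiation. limma called 0 of the 7 genes and 0 of all tested genes (0.0%), with 0 of the 7 and 1424 of all genes at an unadjusted p under 0.05. Rdh7 had a difference of -1.01 (95% interval -2.08 to 0.07) and Aldh1a1 of -0.81 (-1.91 to 0.28), with limma adjusted p = 0.348 and 0.350. Scarb1 had a difference of 0.68 (-0.14 to 1.49). Isx had 0.32 (-0.47 to 1.11), Rbp2 0.23 (-1.06 to 1.51), Dgat1 0.15 (-0.67 to 0.96) and Lrat 0.08 (-0.46 to 0.63). Changes of about the width of these intervals could therefore not be seen. The median of all genes was itself 0.32, and 1364 of the 1424 genes were higher after irradiation. Relative to that median Scarb1 stood at 0.35, Isx at -0.00024, Rbp2 at -0.097, Dgat1 at -0.18, Lrat at -0.24, Aldh1a1 at -1.13 and Rdh7 at -1.33. Scarb1 was thus the only 1 of the 7 above it.

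The 2 non-irradiated libraries differed from each other. All 7 genes were higher in replicate 2 than in replicate 1, from 1.32-fold for Lrat to 5.21-fold for Rbp2, as were 94.95% of all tested genes. The 22 enterocyte markers summed to 673 and 2866 FPKM in these libraries and were all higher in replicate 2. Fits with 1 non-irradiated library take their spread from the other groups and assume that the lone library varies like them. With replicate 1 as that library, Rbp2, Isx and Dgat1 were called higher after irradiation by 1.41, 0.97 and 0.90 (adjusted p = 0.0265, 0.0291 and 0.0204), where 5185 of 11156 genes were called. With replicate 2 alone their differences were -0.95, -0.33 and -0.60 and none was called. Rdh7 and Aldh1a1 had differences of -0.25 and 0.22 with replicate 1 alone and of -1.77 and -1.85 with replicate 2 alone, none of them called.

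The derivative libraries did not rank the 7 genes alike. Rbp2, Scarb1, Dgat1 and Aldh1a1 were highest in replicate 3, at 1.18 to 2.64 times replicate 1. Lrat, Isx and Rdh7 were lowest in replicate 3, at 0.521 to 0.829 times replicate 1. Of all tested genes 29.7% were highest and 51.0% lowest in that library. Of the 22 enterocyte markers 18 were highest there, and their sum was 19020, 24684 and 40112 FPKM in replicates 1 to 3. Markers of crypt base columnar stem cells summed to 451, 319 and 61.9 FPKM, the 15 Paneth cell markers to 38046, 10359 and 5404 and enteroendocrine markers to 553, 1649 and 3876. The part of these differences in the ranking of the 7 genes was not tested.

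**Figure D3:**
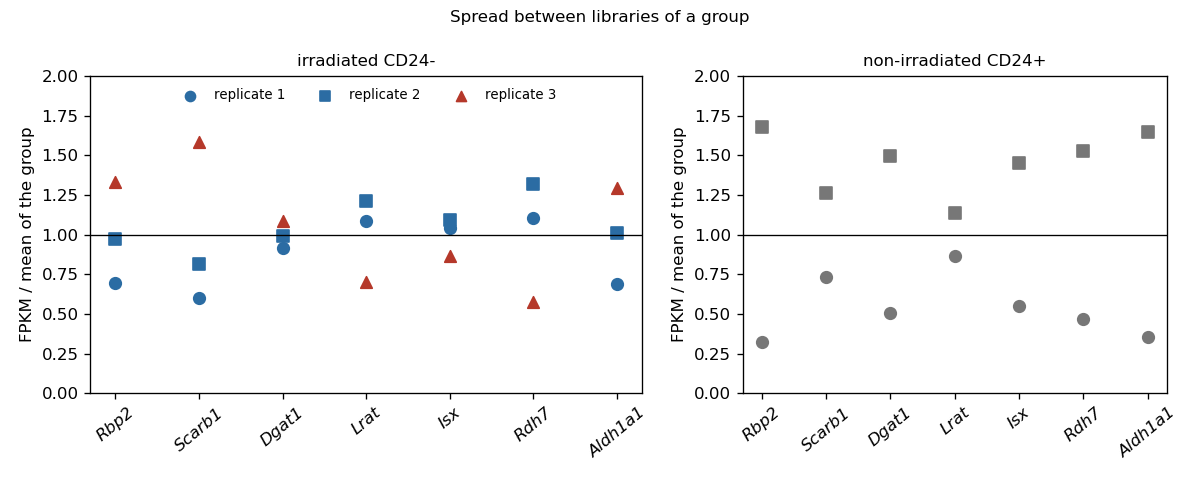
FPKM of each gene divided by its group mean, for the 3 irradiated CD24- libraries (left) and the 2 non-irradiated CD24+ libraries (right). Replicate 3 of the derivatives is above the mean for Rbp2, Scarb1, Dgat1 and Aldh1a1 and below it for Lrat, Isx and Rdh7, and non-irradiated replicate 2 is above replicate 1 for all 7.

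Markers of absorptive cells moved with the 7 genes. Between the irradiated gates 22 of 22 enterocyte markers passed as higher, where 48.6% of all tested genes did. Their median difference was 4.27 on the log2 scale, and none of them was at 0 in any group. Their mean in the irradiated Paneth gate was 3.05% (Apoa4) to 16.0% (Mgam) of that in the derivatives, with a median of 4.71%. Rbp2 (3.85%), Aldh1a1 (5.17%), Rdh7 (6.02%) and Dgat1 (8.20%) fell within this range, while Isx (18.8%), Lrat (26.2%) and Scarb1 (29.4%) stood above it. The part of the enterocyte content of each gate in these values was not tested.

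Other cell types were followed with the same test. Of 15 Paneth cell markers 14 were lower in the derivatives, and so were 7 of 7 stem cell markers and 6 of 7 tested tuft cell markers. Of 9 goblet cell markers 3 were higher and 3 lower, and of 11 enteroendocrine markers 2 were higher and 2 lower. None of 10 cell cycle genes passed. Of 9 immune markers 8 stayed under 1 FPKM in every library, as did 8 of 10 stromal markers, and the remaining ones were Itgam at 2.67 ± 0.263, Vim at 19.7 ± 20.9 and Pecam1 at 0.495 ± 0.559 FPKM (SD, n = 3) in the derivatives. Among regional genes 3 of 4 proximal and 4 of 4 distal small intestine markers were higher. For all these counts, 48.6% of all tested genes were higher in the derivatives and 7.27% lower.

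The wider retinoid pathway was followed through 72 other genes of the table, of which 50 were tested and several also serve fat metabolism. In the derivatives 38 of the 50 were higher and 2 lower than in the irradiated Paneth gate, with a median difference of 1.59, where 48.6% of all tested genes were higher and 7.27% lower with a median of 0.51. Some of the 50, such as Cd36, Rdh9, Dhrs9 and Rdh5, passed the filter on low values only through the derivative libraries, which favoured a call as higher. Carotenoid cleavage was uneven. Bco2, the mitochondrial carotenoid-cleaving enzyme, stood at 5.85 ± 1.85 FPKM in the irradiated Paneth gate and 59.5 ± 5.53 in the derivatives (SD, n = 3), a log2 difference of 3.17 ± 0.30 (SE; adjusted p = 1.22e-05). Bcmo1 (the older symbol of Bco1), whose enzyme splits beta-carotene into retinaldehyde, had 1.303 ± 0.600 and 1.64 ± 1.43 FPKM and did not pass (limma adjusted p = 0.811).

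Among 6 tested genes of retinol transport and uptake 3 were higher, close to the 48.6% of all tested genes. Cd36, a fatty acid and lipoprotein receptor related to Scarb1, stood at 0.812 ± 0.156 and 15.8 ± 2.28 FPKM in the irradiated Paneth and derivative gates (SD, n = 3). Among CD24+ libraries Cd36 reached 1 FPKM only in non-irradiated replicate 2 (1.85). It thus passed the filter on low values only through the derivative libraries, which favoured a call as higher. Rbp7, a further cellular retinol-binding protein, stood at 4.18 ± 0.999 and 16.1 ± 1.51, and the lysosomal Scarb2 at 15.9 ± 0.978 and 32.2 ± 1.40. Ttr (7.20 ± 1.82 and 9.82 ± 1.60) and Rbp4 (6.72 ± 2.08 and 5.30 ± 3.27), which encode the plasma carriers of retinol, did not pass. Stra6, the cell surface receptor of plasma retinol, was listed at 0 in every library.

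The list of ester hydrolysis and packaging held both genes that were lower with the deposited scaling. Of 15 tested members 12 were higher in the derivatives and 2 lower, the latter being the lipase genes Pnliprp1 and Pnliprp2. Over all tested genes 48.6% were higher and 7.27% lower. Pnliprp2 was lower in the derivatives, at 42.1 ± 22.7 FPKM against 782 ± 89.2 in the irradiated Paneth gate (SD, n = 3), and stood at 1865 and 2519.5 FPKM without irradiation. Mttp, which loads lipid onto the fat particles, was higher in the derivatives (38.0 ± 5.21 and 795 ± 217 FPKM). So were Mogat2, a triglyceride-making enzyme (12.4 ± 1.83 and 276 ± 33.5), and the carboxylesterase gene Ces2c (12.5 ± 1.41 and 277 ± 69.9). Ces1d had 5.48 ± 3.09 and 6.89 ± 3.18 FPKM and did not pass.

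Of 18 tested genes that interconvert retinol and retinaldehyde 16 were higher in the derivatives, where 48.6% of all tested genes were. Dhrs9, Rdh5 and Rdh9, for example, passed the filter on low values only through the derivative libraries. Dhrs9 averaged 0.0945 FPKM in the irradiated Paneth gate and 1.75 in the derivatives, and Rdh5 0.545 and 2.30. Such genes could hardly be called in the other direction. Adh1, an alcohol dehydrogenase that can oxidise retinol, stood at 53.3 ± 10.5 FPKM in the irradiated Paneth gate and 406 ± 59.3 in the derivatives (SD, n = 3), above the level of Rdh7 in both. Adh4 stood at 0.904 ± 0.160 and 15.6 ± 0.784, Rdh9 at 0.613 ± 0.263 and 14.2 ± 8.68, and the aldo-keto reductase gene Akr1b7 at 4.24 ± 1.53 and 73.6 ± 18.8. The genes that did not pass were Dhrs7 (27.4 ± 2.12 and 25.9 ± 1.58) and Akr1b10 (8.41 ± 1.03 and 7.49 ± 0.623). The calls of these depended on the scaling: with median-of-ratios scaling Dhrs7 (-0.62), Akr1b10 (-0.64) and Fabp5 (-0.85), a binding protein, were called lower in the derivatives, and with TPM higher (1.15, 0.99 and 0.89).

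Of 8 tested binding proteins and nuclear receptors 5 were higher, not far from the 48.6% of all tested genes. Rxra, the shared partner of many nuclear receptors, stood at 5.68 ± 0.957 and 24.9 ± 2.51 FPKM in the irradiated Paneth and derivative gates (SD, n = 3). Ppard stood at 14.4 ± 2.52 and 34.8 ± 7.18 and Pparg at 1.76 ± 0.208 and 6.30 ± 2.59. Fabp5, which can carry retinoic acid (24.7 ± 9.59 and 19.1 ± 6.39), and Rxrb (10.3 ± 0.974 and 14.0 ± 2.60) did not pass. The 3 Cyp26 genes, whose enzymes break down retinoic acid, were under 1 FPKM in all libraries, and Cyp26a1 was listed at 0 in each.

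**Figure D4:**
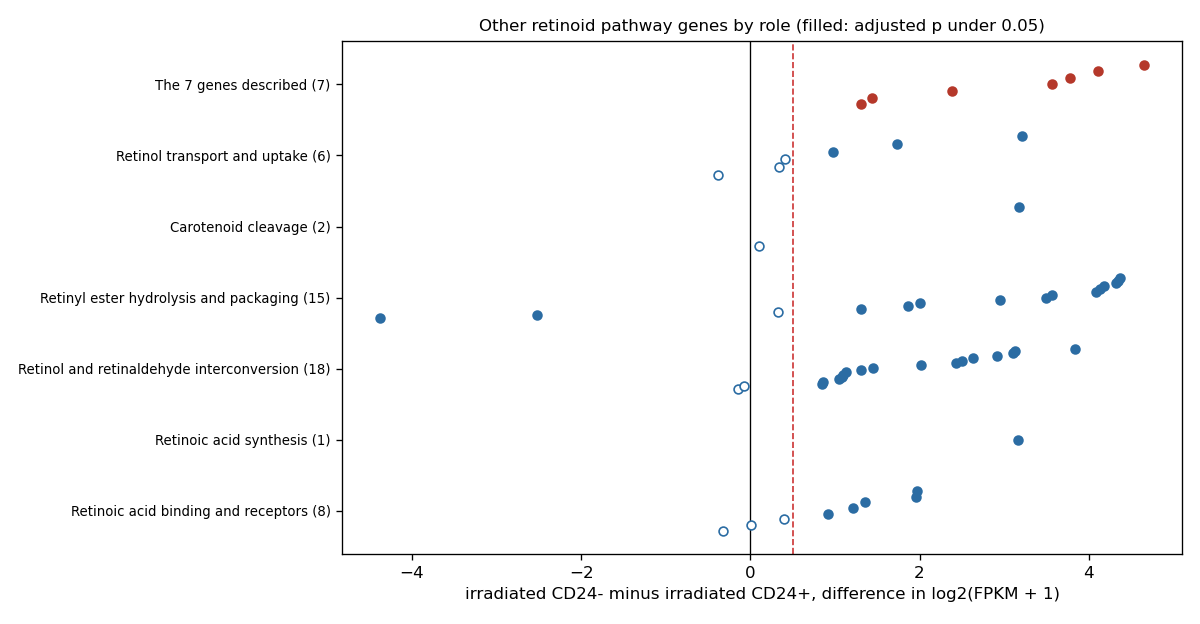
Difference in log2(FPKM + 1) between irradiated CD24- and irradiated CD24+ cells for the 50 tested pathway genes by role, with the 7 genes described in red; filled points passed at an adjusted p under 0.05 and the dashed line is the median of all tested genes. The 2 filled points on the left are Pnliprp2 and Pnliprp1.

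Over the 8 libraries the log2(FPKM + 1) profile of Rbp2 was most like those of Mttp (Pearson r = 0.999), Alpi and Gstm6. The profile of Dgat1 was most like those of Btnl2, Slc26a6 and Slc7a9, and that of Rdh7 most like Cyp3a25, Ugt1a1 and Ugt2a3. Lrat was closest to Dnase1, Edn2 and Fam132a, and Scarb1 to S100a13, Icosl and Galns. Among the genes close to Aldh1a1 were Slc13a2 and Gyk, and among those close to Isx were Dolk and Fam98c. The lowest r of the named genes was 0.992 for Galns. Among the 7 themselves Rbp2 and Dgat1 were the closest pair (r = 0.995) and Scarb1 and Rdh7 the least close (r = 0.657). These values describe the same 8 libraries in 3 groups, so the difference between the gates makes up most of each profile.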

How the data were processed

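The authors deposited FPKM per gene and library. The submitters' processing notes name TopHat2 (2.1.0), StringTie (1.3.4) and build mm9, and the sources used here give no annotation or filters. Per the labels' protocols the library kit (TruSeq RNA v2) does not keep strand, and in GENCODE M21 no exon of another gene overlaps those of the 7. FPKM are relative to each library's total, so the share taken by Paneth products bears on the value of every other gene.

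Repeated symbols (2) were summed. Genes with at least 1 FPKM in at least 2 libraries were kept, and log2(FPKM + 1), which understates changes of low genes, was fitted over all 8 libraries with limma 3.58.1 in R 4.3.3 (empirical Bayes with trend, two-sided). Calls are at a Benjamini-Hochberg adjusted p under 0.05 over all 11190 genes. SE is limma's moderated standard error and SD the spread of FPKM. No label says that replicates are separate mice, so the p-values cover the spread between samples alone. The fit was tested on simulated data.

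The members and lists were chosen with earlier results of these data known. Named pathway genes are, per list, up to 4 called between the irradiated gates with the largest difference and at least 5 FPKM, and up to 2 not called with the highest mean. For likeness the 3 genes with the highest Pearson r were taken. A few genes that these rules name are not reported here. Genes named outside this rule (Pnliprp1, Stra6, Cyp26a1, Rdh1, Rdh5, Rdh16, Rdh16f1, Rdh16f2, Rdh19, Dhrs9, Aldh1a2, Aldh1a3, Itgam, Vim, Pecam1, Apoa4, Mgam) were chosen after their values were seen.

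Same-numbered libraries of the irradiated gates had residuals that correlated across genes at r = 0.366, 0.231 and 0.402. Differently numbered ones had r from -0.381 to 0.0518. No label states a pairing, and whether same-numbered libraries belong together was not tested. Residuals of the 2 non-irradiated replicates mirror each other and did not all correlate with same-numbered libraries. A replicate block was therefore an alternative. The others were a pseudocount of 0.1, no filter or 5 FPKM, TPM, median-of-ratios scaling, rescaling outside Paneth products, a fit of the 2 groups compared, a robust fit and leaving out each library. Figures used matplotlib 3.10.9.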

Additional observations from a re-analysis of the deposited data

How the results depend on the processing

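All 7 genes kept their direction and stayed past the threshold in both comparisons with CD24- cells under every alternative run, except that Lrat was not tested with the filter at 5 FPKM. The replicate block changed none of these calls, and with it 7 genes were called in each and 0 between the CD24+ groups. Of all genes 6469, 8030 and 92 were called in these comparisons, the last against 0 without it. The block also pairs the non-irradiated libraries with irradiated ones by number. No label states that pairing and their residuals did not all correlate, so the 8030 and 92 calls rest on an assumption. Between the irradiated gates the lowest differences were those of Lrat (0.89) and Scarb1 (0.96, adjusted p = 0.0394) with median-of-ratios scaling, and all genes called numbered 10623 with TPM. Against non-irradiated cells 5189 genes were called after rescaling outside Paneth products, and the difference of Lrat was 0.72 with median-of-ratios scaling.

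Between the CD24+ groups the 7 genes gave 0 to 3 calls and all genes 0 to 5185 when each library was left out in turn, the highest without replicate 2 of the non-irradiated group. All genes called were 1 without a filter, 5 with median-of-ratios scaling and 17 with only those groups. Directions turned with median-of-ratios scaling for Rbp2 (-0.24), Lrat (-0.17), Isx (-0.11) and Dgat1 (-0.30), and with rescaling outside Paneth products for Lrat (-0.014) and Dgat1 (-0.032). Leaving out single libraries gave ranges of -0.95 to 1.41 for Rbp2, -0.33 to 0.97 for Isx, -0.60 to 0.90 for Dgat1, -1.85 to 0.22 for Aldh1a1, -1.77 to -0.25 for Rdh7 and -0.027 to 0.28 for Lrat. The cause was not tested.

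The pathway genes that did not pass between the irradiated gates depended on the scaling. TPM called Akr1b10 (0.99), Dhrs7 (1.15), Fabp5 (0.89), Bcmo1 (0.83), Ces1d (1.41), Rxrb (1.58) and Ttr (1.55) higher, and turned Rbp4 to 0.69 without a call. Median-of-ratios scaling called Akr1b10 (-0.64), Dhrs7 (-0.62) and Fabp5 (-0.85) lower, and turned Bcmo1 (-0.18), Ces1d (-0.15), Rxrb (-0.12) and Ttr (-0.093) without a call. Rescaling outside Paneth products called Akr1b10 (-0.58) and Dhrs7 (-0.55) lower, and gave -0.16, -0.084, -0.054 and -0.030 for Bcmo1, Ces1d, Rxrb and Ttr. Without single libraries Bcmo1 ranged from -0.31 to 0.40 and Ces1d from -0.12 to 0.68. The read depth behind each FPKM is not known, and with 2 or 3 libraries a group precision rests on few samples.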
